A study of Rattus norvegicus with 8 samples.

Results

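The genes described here are those of cholesterol and fatty acid synthesis in perfused rat liver, 37 genes of these pathways, listed with earlier results of these data known. Of these, 35 had a probe set with a single gene symbol, out of 14506 genes measured. Hmgcs1 and Srebf1 had none and are not analysed here. The 35 comprised 17 of the sterol arm (16 enzymes and the sterol carrier Stard4), 14 of the lipogenic arm (fatty acid and glycerolipid synthesis) and 4 regulators. Only Insig1 had more than 1 probe set, and the brighter of its 2 by mean level was used.

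The livers, from outbred Wistar males aged 6 to 10 weeks, were isolated and perfused with Krebs-Henseleit buffer, a salt solution pumped through the vessels to keep the organ alive. The normoosmotic group (305 mosm/L) and the hypoosmotic group (225 mosm/L, a buffer that makes cells swell) each held 4 samples at 120 min, with no genetic change or added agent named in the labels. Total RNA was measured on 1-colour Affymetrix arrays. The labels do not state that samples are separate animals, and the p-values below therefore cover the spread between the deposited samples, part of which could be technical.

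Values are deposited log2 expression values, and a change is the hypoosmotic minus the normoosmotic mean, tested with limma across all 14506 genes. A gene was called at a Benjamini-Hochberg adjusted p under 0.05. The array medians lay between 4.05 and 4.16. All 7 hepatocyte markers lay at the 99.7th percentile by mean level or above, with a summed level of 15.11 to 15.14 in normoosmotic and 15.04 to 15.19 in hypoosmotic samples. Adipocyte markers, which bear on lipogenic genes because fat cells express many of them, had a summed level of 6.39 to 6.55 and 6.38 to 6.81, with 0 of 5 called. Adipoq, a defining adipocyte marker, read 2.45 to 2.78 over all 8 samples, and by mean level the 5 lay from percentile 16.3 (Adipoq) to 57.2 (Cfd) of all genes. Fabp4, another of the 5, read 4.46 to 4.62 in normoosmotic and 4.57 to 5.19 in hypoosmotic samples (unadjusted p = 0.0189, limma adjusted p = 0.216), and its part in the lipogenic values was not tested. Of the Kupffer, endothelial, stellate, cholangiocyte and blood markers, 0 were called, against 1.98% of all genes. At that share lists this short would often hold 0, so these counts and the adipocyte count do not show unchanged cell content. Without a call, Pecam1 (endothelial) read 6.26 to 6.44 in normoosmotic and 6.47 to 6.78 in hypoosmotic samples. Alas2 (blood) read 3.14 to 3.35 and 2.94 to 3.12. Reln (stellate) changed by −0.455 and Spp1 (cholangiocyte) by 0.26 (limma, unadjusted p = 0.0231 and 0.0452). Kupffer markers had a summed level of 9.42 to 9.96 in normoosmotic and 9.53 to 10.21 in hypoosmotic samples, and stellate markers 8.89 to 9.74 and 8.94 to 9.34. These levels varied more between samples than the hepatocyte level, and the part of these cells in the values below was not tested. In whole liver, fewer cells of a type and less RNA per cell cannot be told apart.

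Cholesterol is built from acetyl-CoA by way of mevalonate, isoprenoids, squalene and lanosterol, and fatty acids are built from the same precursor through malonyl-CoA. Both arms are driven by the sterol regulatory element binding proteins, membrane-bound transcription factors encoded by Srebf1 and Srebf2. Scap escorts them to the Golgi apparatus for cleavage, and the Insig proteins hold them back when sterols are plentiful. In liver, Srebf2 is known mainly for the sterol arm, and Srebf1, insulin and the carbohydrate sensor Mlxipl for the lipogenic arm. Hepatic cholesterol synthesis is also known to follow a daily rhythm tied to feeding.

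Hypoosmotic perfusion was not accompanied by a called change in any of the 35 genes by limma, with 0 higher and 0 lower, against 1.98% of all genes. The 4 values of one group lay beyond the 4 of the other in 0 of 35 members, against 8.27% of all genes. At an unadjusted p under 0.05 there were 3 members (8.57%), all of the sterol arm, against 14.6% of all genes. Every member lay above the dimmest 25% of genes. The 95% interval of all 35 changes lay within 2-fold in either direction, as it did for 97.7% of all genes, and that of 22 (62.9%) within 1.5-fold, as for 81.4% of all genes. The widest reached 1.87-fold upward, for Gpam, and 0.54-fold downward, for Idi1. In simulated data with 4 arrays against 4, 89.6% of genes changed by 1 log2 unit and 33.0% of those changed by 0.5 were recovered. Changes of 0.5 or less would thus often be missed at this number of arrays. The simulated noise was independent between genes and the shares are averages over randomly chosen genes. They may therefore be too high for members with wide intervals.

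The arms differed in the sign of most of their changes, none of which passed the test. In the sterol arm 11 of 17 changes were below 0, with a median of −0.21 and a range from −0.34 to 0.39. In the lipogenic arm 5 of 14 were below 0, with a median of 0.09 and a range from −0.20 to 0.43. Over all genes the median was 0.04 and 41.4% of the changes were below 0. No p-value is given for a difference between the arms. The sterol median turned above 0 when 2 normoosmotic samples were left out together. Leaving out normoosmotic replicate 1 gave −0.13, leaving out replicate 3 gave −0.09, and leaving out both gave 0.145, while the lipogenic median was then 0.075, 0.07 and 0.025. Leaving out hypoosmotic replicate 3 moved the sterol median as far as normoosmotic replicate 1 did, to −0.13, and the lipogenic median to 0.16, and leaving out hypoosmotic replicate 1 gave a lipogenic median of 0.045.

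**Figure D1:**
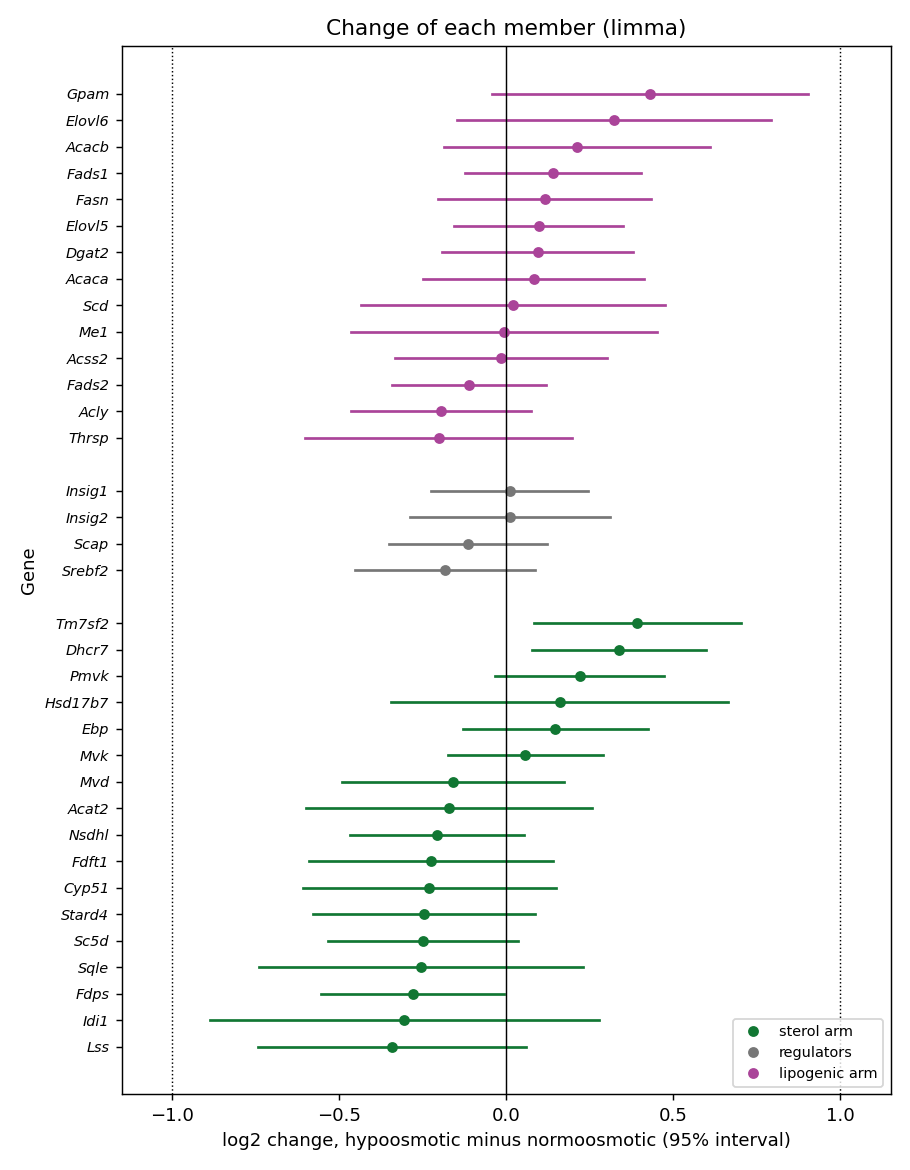
Log2 change of each member (points) with its 95% interval from limma (bars), hypoosmotic minus normoosmotic, 4 arrays per group. Green marks the sterol arm, grey the regulators and purple the lipogenic arm, and the dotted lines mark a 2-fold change in either direction, which none of the 35 intervals reaches.

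The first steps of the sterol arm make and activate mevalonate. Acat2, which joins acetyl-CoA units, read 7.32, 6.23, 6.98 and 6.45 in normoosmotic replicates 1 to 4 and 6.56, 6.73, 6.44 and 6.56 in hypoosmotic replicates 1 to 4. The hypoosmotic values sat inside the normoosmotic range, and the log2 change was −0.17 ± 0.20 (SE; limma, adjusted p = 0.763). The mevalonate kinase gene Mvk stayed between 5.65 and 5.95 in all 8 samples, with a change of 0.06 ± 0.11. Pmvk, the next kinase, ran from 6.27 to 6.50 in normoosmotic and from 6.42 to 6.83 in hypoosmotic samples, a change of 0.22 with a 95% interval from −0.03 to 0.47. Mvd, which decarboxylates mevalonate diphosphate, was the dimmest member relative to all genes, at the 58.5th percentile by mean level, and its change was −0.16 ± 0.15.

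The next enzymes make isoprenoids and squalene. Idi1, the isomerase that makes the second building block of isoprenoids, read 8.87, 7.83, 8.95 and 7.85 in normoosmotic replicates 1 to 4. In hypoosmotic samples it read 7.83, 8.26, 7.64 and 8.55. Normoosmotic replicates 1 and 3 were therefore about 1 log2 unit above replicates 2 and 4 of the same buffer, and all 4 hypoosmotic values lay below the former. The change was −0.30 ± 0.27 (SE; limma, adjusted p = 0.676), with an interval from 0.54-fold to 1.21-fold.

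Sqle, the oxygenase that commits squalene to sterols, read 9.28, 8.68, 9.51 and 8.25 in normoosmotic and 8.57, 8.56, 8.66 and 8.91 in hypoosmotic samples. Again the normoosmotic samples enclosed the hypoosmotic ones, and the change was −0.26 ± 0.22 (limma, adjusted p = 0.673). Fdft1, squalene synthase, read 9.41, 8.57, 9.16 and 8.73 against 8.77, 8.78, 8.56 and 8.86. Fdps, which makes farnesyl diphosphate, read 9.90, 9.71, 10.07 and 9.55 against 9.59, 9.48, 9.61 and 9.43. Only normoosmotic replicate 4 of Fdps lay among the hypoosmotic values, and its change of −0.28 ± 0.13 had an unadjusted p of 0.0459 and an adjusted p of 0.331 (limma).

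Among the enzymes that shape the sterol ring, Lss, which closes squalene epoxide into lanosterol, had the lowest change of the 35, −0.34 ± 0.19 (limma, adjusted p = 0.442). It read 7.83, 7.57, 7.56 and 6.81 in normoosmotic and 7.19, 7.19, 7.16 and 6.86 in hypoosmotic samples. Normoosmotic replicate 4 was the lowest of all 8, and the adjusted p was 0.061 without it. The lanosterol demethylase gene Cyp51 read 9.86, 9.29, 9.96 and 9.10 against 9.41, 9.29, 9.37 and 9.22, a change of −0.23 ± 0.18. Nsdhl, which removes a methyl group, and Sc5d, a desaturase near the end of the pathway, had changes of −0.21 ± 0.12 and −0.25 ± 0.13. Stard4, which carries cholesterol between membranes, had one of −0.24 ± 0.15.

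The reductases and the isomerase of the late pathway lay on the other side of 0. Dhcr7, which makes cholesterol from its last precursor, read 8.65, 8.43, 8.43 and 8.65 in normoosmotic replicates 1 to 4 and 9.05, 8.92, 8.90 and 8.64 in hypoosmotic ones. Of its hypoosmotic values 3 lay above every normoosmotic value and replicate 4 among them, and the change was 0.34 ± 0.12 (SE; limma, unadjusted p = 0.0152, adjusted p = 0.194). Tm7sf2, a sterol reductase, read 7.55, 7.65, 7.66 and 7.43 against 7.62, 8.33, 7.99 and 7.92, with only hypoosmotic replicate 1 among the normoosmotic values. Its change was 0.39 ± 0.14 (unadjusted p = 0.0167, adjusted p = 0.203). Unlike Idi1, Sqle, Fdft1 and Cyp51, neither gene was highest in normoosmotic replicates 1 and 3, and without those samples the changes were 0.34 for Dhcr7 and 0.425 for Tm7sf2. Ebp, a sterol isomerase, had a change of 0.15 ± 0.13 and Hsd17b7, a keto reductase, one of 0.16 ± 0.23. Hsd17b7 varied widely within each group, from 6.24 to 7.40 and from 6.64 to 7.38.

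**Figure D2:**
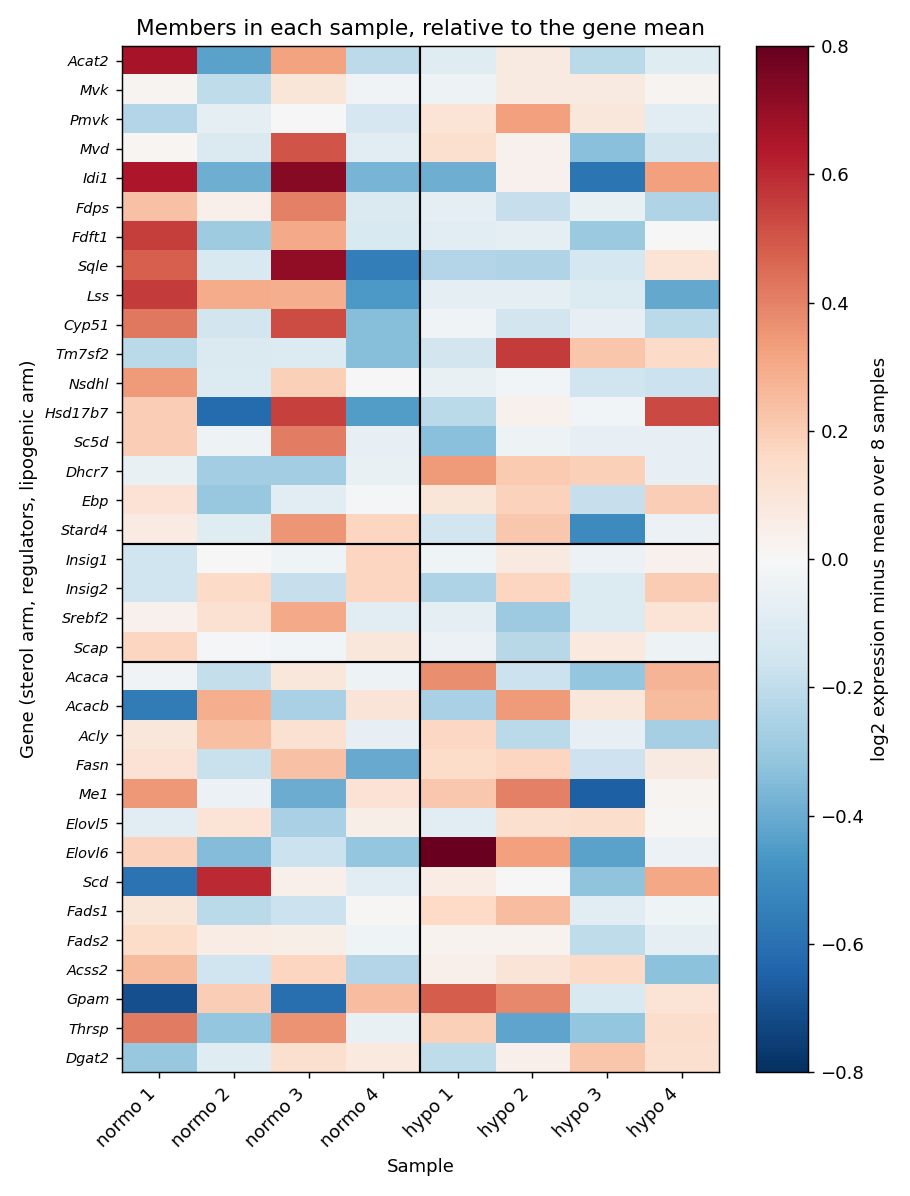
Log2 expression of each of the 35 members (rows, grouped as sterol arm, regulators and lipogenic arm) in each of the 8 samples (columns), minus the gene's mean over the 8 samples, with red above and blue below the mean. Normoosmotic replicates 1 and 3 are red over most of the sterol arm, where their median deviations are 0.20 and 0.32.

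For most sterol genes the spread was larger within the normoosmotic than within the hypoosmotic group. Normoosmotic replicates 1 and 3 both lay above replicates 2 and 4 in 11 of the 17 sterol genes (64.7%), against 16.0% of all genes, and both below in 0 of 17, against 13.9%. The 11 were Acat2, Mvk, Mvd, Idi1, Fdps, Fdft1, Sqle, Cyp51, Nsdhl, Hsd17b7 and Sc5d. Both samples lay above every hypoosmotic sample in 9 sterol genes (52.9%), 8 of these 11 and Lss, against 10.9% of all genes. The median deviation of the sterol arm from the gene means was 0.20, −0.12, 0.32 and −0.125 in normoosmotic replicates 1 to 4 and −0.08, 0.035, −0.11 and −0.06 in hypoosmotic ones. So 2 normoosmotic samples stood high, and the other 2 lay just below the lowest hypoosmotic sample. The SD was larger among normoosmotic than among hypoosmotic samples in 12 of 17 sterol genes (70.6%), against 46.1% of all genes, and its median was 0.23 and 0.16. These counts describe a pattern seen in the values, and they carry no test.

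The same samples stood apart in clock genes, whose level follows the time of day. The clock activator gene Bmal1 read 4.85, 7.18, 4.75 and 7.32 in normoosmotic replicates 1 to 4 and 7.15, 6.90, 6.42 and 6.92 in hypoosmotic ones. Dbp, which the activator drives, read 8.89, 6.22, 9.04 and 6.31 against 5.96, 6.43, 7.98 and 8.08. Bmal1 was therefore low, and Dbp high, in normoosmotic replicates 1 and 3, and no hypoosmotic sample reached their levels. Per3, another clock gene, read 6.01, 4.67, 6.75 and 4.57 against 4.55, 4.44, 5.22 and 5.25. Within the hypoosmotic group, Dbp and Per3 were thus higher in replicates 3 and 4 than in 1 and 2. The median deviations of the sterol arm were −0.11 and −0.06 in replicates 3 and 4 and −0.08 and 0.035 in 1 and 2. With 2 samples on each side, whether the arm follows that split was not tested. When a clock score was added to the fit (Bmal1 and Npas2, averaged, less the average of Dbp and Per3), the sterol median was −0.03 and the lipogenic median 0.08. The score was −2.8 and −3.4 in normoosmotic replicates 1 and 3 and from −0.52 to 1.49 in the others. This fit therefore largely sets those samples apart, much as leaving them out does, and is not separate support. A part of the clock in the sterol values was not tested. The covariate moved Idi1 to −0.03, Sqle to 0.01 and Cyp51 to −0.04. It moved Lss from −0.34 to −0.22, Fdps from −0.28 to −0.18, Sc5d from −0.25 to −0.14 and Nsdhl from −0.21 to −0.14. Stard4 changed little, from −0.245 to −0.23. On the other side of 0, Dhcr7 and Tm7sf2 were at 0.32 and 0.42, and Hsd17b7 moved to 0.43. Again 0 members were called. The labels give no time of day or feeding state.

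**Figure D3:**
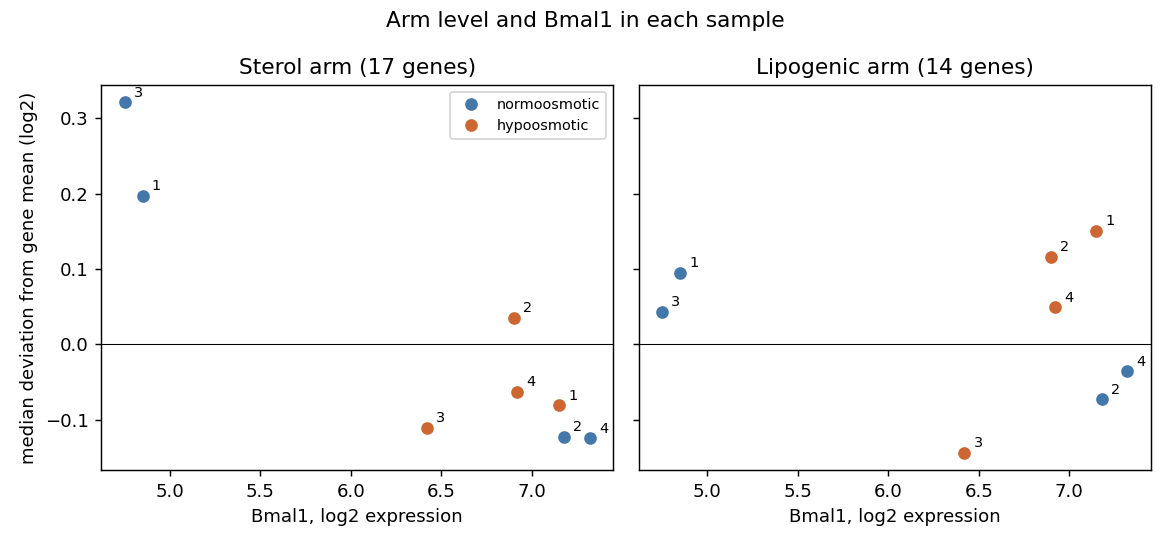
Median deviation of the sterol arm (left) and the lipogenic arm (right) from the gene means, in log2 units, against the log2 expression of the clock gene Bmal1 in each of the 8 samples, numbered by replicate. In the sterol panel normoosmotic replicates 1 and 3, with Bmal1 at 4.85 and 4.75, lie at 0.20 and 0.32, and the other 6 samples lie between −0.125 and 0.035.

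**Figure D4:**
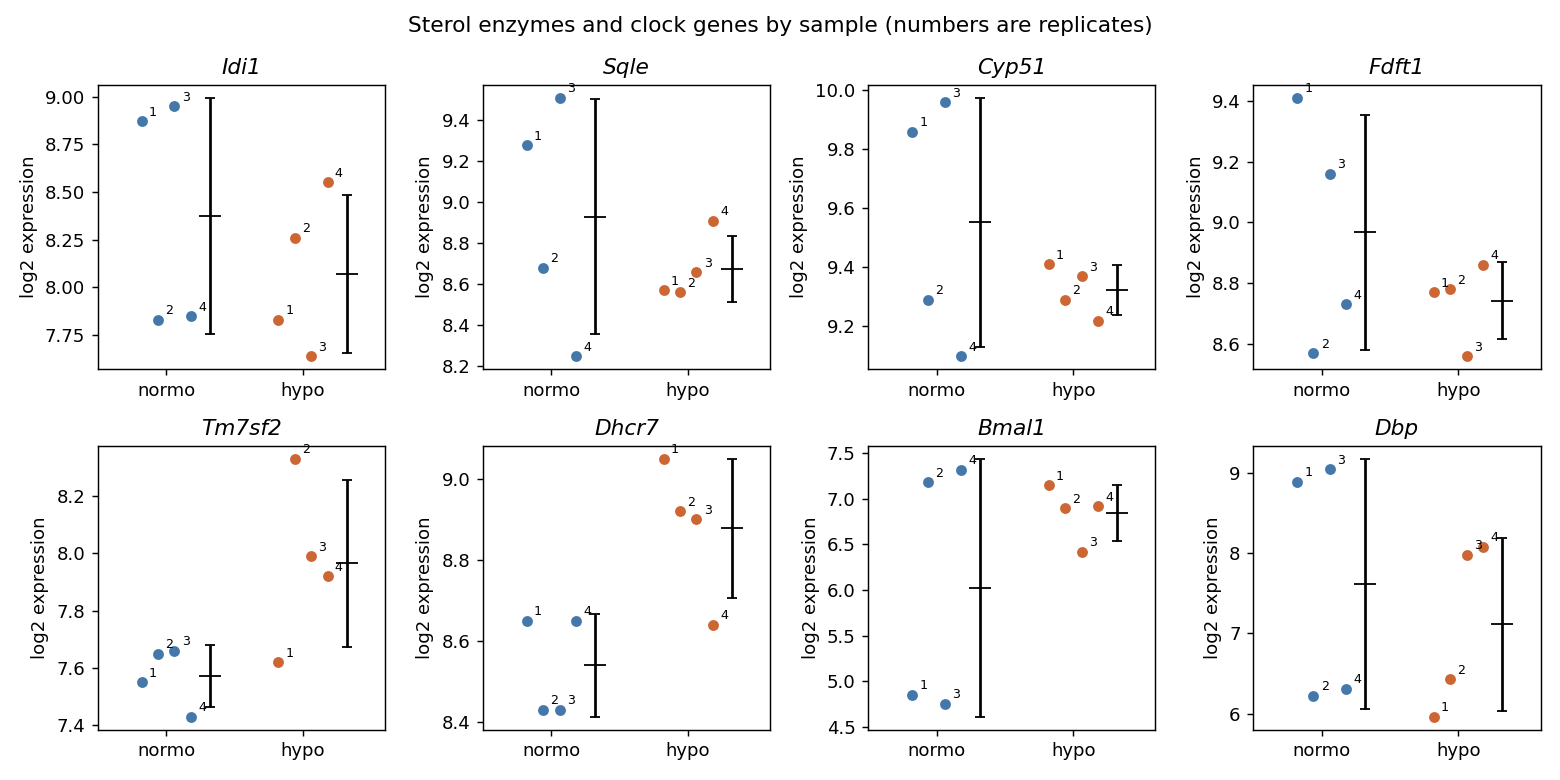
Log2 expression of 6 sterol enzyme genes and of the clock genes Bmal1 and Dbp in each sample (points, numbered by replicate), with the mean and SD of each group of 4 beside them. Idi1, Sqle, Cyp51 and Fdft1 are highest in normoosmotic replicates 1 and 3, and Tm7sf2 and Dhcr7 are not.

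To show what these genes hold upstream of their start sites, the 250 bases before the RefSeq gene start (GRCr8) were read for the 27 members with an entry. The binding site of the Srebf factors was searched as TCACNCCAC and the CCAAT box, bound by the NF-Y factor that acts beside them, as CCAAT, both on either strand (ATTGG is CCAAT on the other strand). TCACNCCAC was in 0 of the 27 windows and in 0.946% of the 11950 windows of genes on the arrays, and no match says only that these letters are not in this window. CCAAT was in 10 of 13 sterol windows (76.9%), 3 of 4 regulator windows and 7 of 10 lipogenic windows (70.0%), against 35.6% of the windows of genes on the arrays. Also searched were CACGTG (E-box) and TTATGNAA (D-box). CACGTG was in 1 of 13 sterol, 2 of 4 regulator and 1 of 10 lipogenic windows, against 6.93%. TTATGNAA was in 0 windows of each list, against 2.72%. With no TCACNCCAC match, no CCAAT match overlapped one. Shown 5′ to 3′ with CCAAT boxes in capitals are 3 sterol genes that were high in normoosmotic replicates 1 and 3 (Idi1, Nsdhl and Cyp51), Dhcr7, which was not, and the lipogenic gene Thrsp.
Idi1 (chr17:66547525-66547774, minus strand): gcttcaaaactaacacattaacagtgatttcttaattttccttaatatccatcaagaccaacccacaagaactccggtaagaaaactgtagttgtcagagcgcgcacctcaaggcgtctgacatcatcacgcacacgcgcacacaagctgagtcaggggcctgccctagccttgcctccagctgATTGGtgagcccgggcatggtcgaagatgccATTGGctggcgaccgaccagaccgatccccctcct
Nsdhl (chrX:155817110-155817359, plus strand): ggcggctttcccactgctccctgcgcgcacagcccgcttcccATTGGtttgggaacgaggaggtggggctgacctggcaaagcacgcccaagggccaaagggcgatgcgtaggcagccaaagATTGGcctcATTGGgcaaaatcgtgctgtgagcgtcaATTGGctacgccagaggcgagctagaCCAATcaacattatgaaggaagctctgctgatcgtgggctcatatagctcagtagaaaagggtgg
Cyp51 (chr4:30991443-30991692, plus strand): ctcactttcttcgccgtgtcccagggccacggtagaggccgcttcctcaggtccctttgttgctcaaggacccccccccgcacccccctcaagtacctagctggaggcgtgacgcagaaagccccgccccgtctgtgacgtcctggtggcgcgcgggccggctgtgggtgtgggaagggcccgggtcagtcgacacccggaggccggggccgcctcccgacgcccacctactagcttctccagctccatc
Dhcr7 (chr1:208444184-208444433, plus strand): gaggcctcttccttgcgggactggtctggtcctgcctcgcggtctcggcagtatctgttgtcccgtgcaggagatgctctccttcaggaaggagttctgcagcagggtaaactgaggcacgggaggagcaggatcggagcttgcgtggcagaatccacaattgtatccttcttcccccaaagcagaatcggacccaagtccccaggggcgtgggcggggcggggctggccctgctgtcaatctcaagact
Thrsp (chr1:161138965-161139214, minus strand): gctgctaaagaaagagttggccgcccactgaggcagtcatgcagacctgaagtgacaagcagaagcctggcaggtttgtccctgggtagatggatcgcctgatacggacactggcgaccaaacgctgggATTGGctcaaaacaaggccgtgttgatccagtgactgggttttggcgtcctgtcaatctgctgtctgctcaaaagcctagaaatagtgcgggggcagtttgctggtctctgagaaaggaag
Idi1 holds 2 CCAAT boxes, Nsdhl 5 and Thrsp 1, while Cyp51, which had the same sample pattern as Idi1, and Dhcr7, which did not, hold 0. The letters are a description of the windows and not evidence of binding.

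The intervals of all 4 regulators lay within 1.5-fold. Insig1 read 10.93, 11.09, 11.05 and 11.26 in normoosmotic and 11.05, 11.16, 11.04 and 11.12 in hypoosmotic samples, a change of 0.01 with an interval from 0.855-fold to 1.19-fold. Its other probe set gave −0.045 (limma over all probe sets, adjusted p = 0.895). Insig2 read 10.47, 10.78, 10.44 and 10.80 against 10.38, 10.80, 10.52 and 10.83, a change of 0.01 ± 0.14. Both Insig genes were lower in normoosmotic replicates 1 and 3 than in 2 and 4, the reverse of those 11 sterol genes. Srebf2 ranged from 6.64 to 7.03 and from 6.44 to 6.84, with a change of −0.18 ± 0.12 (adjusted p = 0.568), and Scap from 7.39 to 7.58 and from 7.19 to 7.49, with a change of −0.12 ± 0.11 (adjusted p = 0.702).

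In the lipogenic arm, the genes that supply and carboxylate acetyl-CoA differed little between the buffers. Acly, which makes cytosolic acetyl-CoA from citrate, read 8.43, 8.58, 8.46 and 8.27 in normoosmotic and 8.50, 8.12, 8.27 and 8.07 in hypoosmotic samples. The ranges overlapped, and the change was −0.20 ± 0.12 (SE; limma, adjusted p = 0.531). Acss2, which makes acetyl-CoA from acetate, had a change of −0.015 ± 0.15, and Me1, a source of NADPH, one of −0.01 ± 0.21. The acetyl-CoA carboxylase genes Acaca and Acacb had changes of 0.08 ± 0.15 and 0.21 ± 0.18. Acacb, whose product acts at mitochondria, read 5.14, 5.99, 5.44 and 5.80 against 5.44, 6.04, 5.79 and 5.95, low in normoosmotic replicates 1 and 3.

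Fasn, the fatty acid synthase gene, read 6.82, 6.53, 6.94 and 6.30 in normoosmotic and 6.85, 6.88, 6.54 and 6.78 in hypoosmotic samples. All hypoosmotic values lay inside the normoosmotic range, and the change was 0.12 with an interval from 0.869-fold to 1.35-fold. Scd, the desaturase that makes oleate, read 10.14, 11.33, 10.77 and 10.65 against 10.79, 10.73, 10.41 and 11.04, a change of 0.02 ± 0.21. The normoosmotic samples alone spanned more than 1 log2 unit. Among the elongases, Elovl6 had a change of 0.32 ± 0.22, with hypoosmotic replicate 1 at 7.59 above the other 7 samples at 6.37 to 7.13, and Elovl5 one of 0.10 ± 0.12. Fads1 and Fads2, desaturases of polyunsaturated fatty acids, had changes of 0.14 ± 0.12 and −0.11 ± 0.11.

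Gpam, which starts glycerolipid synthesis at the mitochondrion, had the highest change of the 35, 0.43 ± 0.22 (SE; limma, adjusted p = 0.402). It read 7.30, 8.20, 7.40 and 8.25 in normoosmotic and 8.49, 8.39, 7.88 and 8.11 in hypoosmotic samples. Normoosmotic replicates 1 and 3 were low, replicates 2 and 4 lay among the hypoosmotic samples, and without the former the change was −0.01. Thrsp, a thyroid hormone responsive lipogenic gene, read 11.26, 10.53, 11.20 and 10.78 against 11.03, 10.42, 10.53 and 10.98, a change of −0.20 ± 0.19. Its normoosmotic replicates 1 and 3 were above 2 and 4, as in 11 of the sterol genes. Dgat2, which makes triglyceride, stayed between 9.27 and 9.79 in all 8 samples, with a change of 0.10 ± 0.13.

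Normoosmotic replicates 1 and 3 were both above 2 and 4 in 5 of 14 lipogenic genes (Acaca, Fasn, Elovl6, Acss2 and Thrsp) and both below in 3 (Acacb, Elovl5 and Gpam). These shares of 35.7% and 21.4% compare with 16.0% and 13.9% of all genes. The median deviation of the arm was 0.095, −0.07, 0.04 and −0.04 in normoosmotic replicates 1 to 4 and 0.15, 0.12, −0.14 and 0.05 in hypoosmotic ones. Normoosmotic replicates 1 and 3 thus lay inside the hypoosmotic range in this arm, and the median SD was 0.24 in each group.

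Of 63 further genes of sterol handling and of lipid synthesis, its regulation and lipid handling, listed by pathway with earlier results known, 53 were measured. In the sterol list (uptake, efflux, storage, sensing and 2 more synthesis enzymes, Msmo1 and Ggps1) 0 of 23 were called by limma, against 1.98% of all genes. An unadjusted p under 0.05 was found for 3 (13%), against 14.6% of all genes, and the median change was 0.03. The 3 were Scarb1, a lipoprotein receptor, at 0.315 ± 0.13 (adjusted p = 0.257), Ggps1, which makes a longer isoprenoid, at −0.37 ± 0.15 (0.267), and Abcg8, part of a sterol export pump, at 0.415 ± 0.19 (0.325). Ggps1 was dim, at percentile 16.1. Msmo1, a sterol oxidase named here after its values were seen, read 10.31, 8.98, 10.25 and 9.08 in normoosmotic and 8.84, 9.16, 9.11 and 9.55 in hypoosmotic samples, again high in normoosmotic replicates 1 and 3, and its change was −0.49 ± 0.28 (limma, adjusted p = 0.477). The other list held lipid synthesis enzymes and also regulators, fatty acid uptake and binding genes and lipid droplet genes. In it 1 of 30 rose (3.33%, against 0.558% of all genes) and 2 fell (6.67%, against 1.42%). The 1 that rose, Ppargc1b, and 1 of the 2 that fell, Pparg, are regulators and not synthesis enzymes.

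Lpin2, a phosphatidate phosphatase that makes diglyceride for triglyceride synthesis, read 8.76, 8.59, 9.06 and 8.27 in normoosmotic and 7.79, 7.68, 7.90 and 8.10 in hypoosmotic samples. The groups did not overlap, and it fell to 0.573-fold (95% interval 0.451 to 0.728; limma, adjusted p = 0.0228). Pparg, a nuclear receptor that promotes fat storage, read 6.50, 6.11, 5.68 and 5.82 against 4.51, 4.66, 5.35 and 5.39. It fell to 0.483-fold (0.347 to 0.672; adjusted p = 0.0282). Ppargc1b, a coactivator known to act with Srebf factors, read 3.68, 3.89, 4.07 and 3.87 against 4.57, 4.45, 4.40 and 4.48. It rose 1.51-fold (1.28 to 1.79; adjusted p = 0.0193). By mean level Ppargc1b was rather dim, at percentile 42.5 of all genes, with Pparg at 62.8 and Lpin2 at 92.7.

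The calls of these 3 genes were not held by every fit. Without 1 array the adjusted p of Lpin2 was 0.0714 and 0.0685 (normoosmotic replicates 1 and 3) and 0.059, 0.0899 and 0.0585 (hypoosmotic replicates 1, 2 and 3). That of Pparg was 0.0855 and 0.0638 (normoosmotic replicates 1 and 2) and 0.072 and 0.109 (hypoosmotic replicates 1 and 2), and 0.065 with the replicate number as a block. That of Ppargc1b was 0.0597 (normoosmotic replicate 1), 0.056 and 0.0633 (hypoosmotic replicates 1 and 2). With the clock score in the fit, all 3 missed the threshold, at 0.0514, 0.0877 and 0.0583, and the changes were −0.65, −0.96 and 0.59. Without normoosmotic replicates 1 and 3 together the changes were −0.56, −0.99 and 0.595 (limma, adjusted p = 0.281, 0.199 and 0.15). Where groups do not overlap, leaving out arrays cannot change the sign, so the kept signs add no support.

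**Figure D5:**
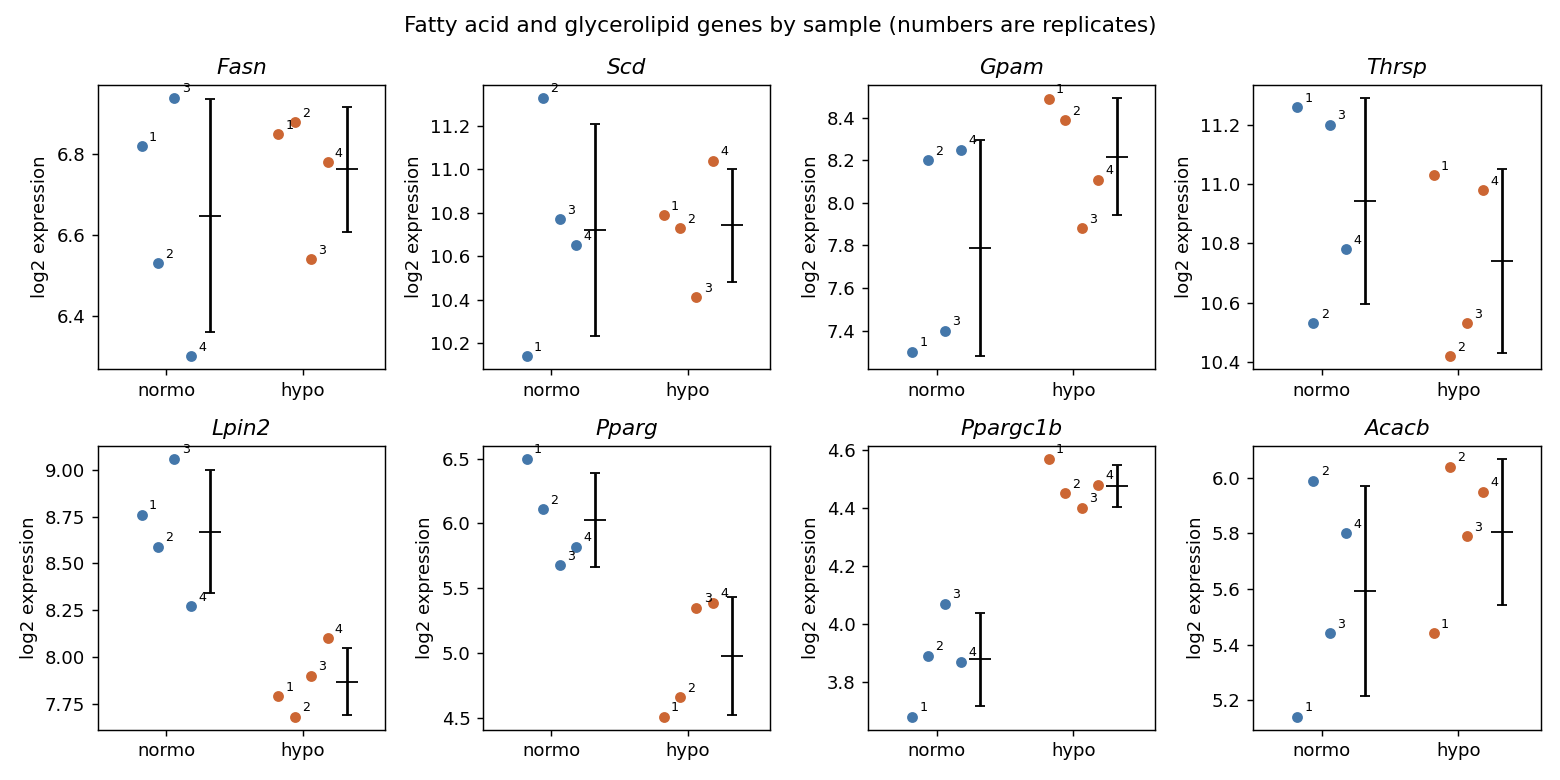
Log2 expression of 5 lipogenic members (Fasn, Scd, Gpam, Thrsp and Acacb) and of Lpin2, Pparg and Ppargc1b in each sample (points, numbered by replicate), with the mean and SD of each group of 4. The groups overlap for the 5 members and do not overlap for Lpin2, Pparg and Ppargc1b.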

How the data were processed

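Total RNA of 8 samples of perfused liver was extracted with Trizol and biotin-labelled, per the labels' protocols. The authors used Transcriptome Analysis Console 4.0, per the submitters' processing notes. Not given in the sources used here is how probes were summarised, background-corrected and normalized. The authors deposited log2 values for 27596 probe sets, which were used unaltered. The scale was inferred from the range of 0.88 to 13.26. No detection call was used, so differences between dim probe sets may be compressed. The number of arrays, 4 per group, limits the precision.

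Of the probe sets, 15310 had 1 gene symbol, 323 several and 11963 are unnamed here, and 15279 symbols were matched by gene ID to RefSeq (GRCr8). The fit was limma 3.58.1 under R 4.3.3 (lmFit, then eBayes), two-sided, with the buffer as its single term and Benjamini-Hochberg adjustment over 14506 genes. The fit was tested on simulated data in 20 runs, where 4.17% of the calls were unchanged genes. All members are named. From the 2 further lists, called genes are named, or else the 3 with the smallest p. The members, lists and clock score were chosen with earlier results of these data known. Alternatives were filters, scalings, priors, array weights, a replicate block, the clock covariate, other thresholds and leaving out arrays.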

Additional observations from a re-analysis of the deposited data

Results flagged for a closer look

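Of 82 groups of 4 values examined, 2 held a sample flagged by Dixon's outlier rule. The rule sets a cut on the gap to the nearest neighbour as a share of the group's range. Chance alone flags about 1 group in 20 at that cut. Lss read 6.86 in hypoosmotic replicate 4, below the other hypoosmotic samples at 7.16 to 7.19, with a gap of 0.909 of the range. Sc5d read 9.99 in hypoosmotic replicate 1, below the other 3 at 10.26 to 10.28, with a gap of 0.931 of the range.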

How the results depend on the processing

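In the 17 other fits run, 0 of the 35 members were called, and the smallest adjusted p of a member was 0.061 (limma). At an adjusted p under 0.1 the count of members was also 0. The sign of the change was kept in all 17 fits by 16 members and changed in at least 1 by 18, each time without a call, and that of Mvk was at 0 without normoosmotic replicate 2 and above 0 in the others. Leaving out normoosmotic replicates 1 and 3 together was chosen after seeing the data.

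The count of all genes called was 287, and 81 to 365 with 1 array left out, 92 with the clock score as a covariate, 21 without normoosmotic replicates 1 and 3 together, 68 at an adjusted p under 0.01 and 601 at one under 0.1. It was 256 with the replicate block, of which 216 were among the 287. The deviations of same-numbered samples from their group means correlated at 0.0456, 0.0276, 0.0835 and 0.173 for replicates 1 to 4, so the numbers were not taken to pair the samples. The block left the medians at −0.21 and 0.09 and ended the call of Pparg only, among the genes named.

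The sterol median was −0.0269 with the clock covariate and 0.145 without normoosmotic replicates 1 and 3 together. The lipogenic median stayed above 0 in every fit run, from 0.025 to 0.16, but so did the median of all genes. Without normoosmotic replicates 1 and 3 together it was 0.025 against 0.0325 for all genes. Without hypoosmotic replicate 1 it was 0.045 against 0.0408.

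With the clock covariate the change turned to 0.0198 for Acat2, 0.0122 for Sqle, −0.04 for Insig1, −0.0716 for Insig2, −0.12 for Scd and 0.0845 for Acss2. Without normoosmotic replicates 1 and 3 together it turned to 0.23 for Acat2, 0.02 for Mvd, 0.23 for Idi1, 0.0925 for Fdft1, 0.21 for Sqle, 0.13 for Cyp51, −0.0825 for Insig1, −0.16 for Insig2, −0.09 for Acacb, −0.03 for Elovl5, −0.25 for Scd, 0.19 for Acss2, −0.0075 for Gpam and 0.085 for Thrsp. Quantile normalization turned Insig1 to −0.0063 and Acss2 to 0.0023. Subtraction of array medians turned Insig1 and Insig2 to −0.02 each and Scd to −0.01. Array weights turned Me1 to 0.0906, and the mean over probe sets turned Insig1 to −0.0175. With 1 array left out the change ran from −0.34 to 0.0192 for Acat2, −0.0183 to 0.37 for Hsd17b7, −0.0408 to 0.0692 for Insig1, −0.0558 to 0.0942 for Insig2, −0.0275 to 0.20 for Acaca, −0.0008 to 0.21 for Fasn, −0.14 to 0.21 for Me1, −0.17 to 0.22 for Scd and −0.0967 to 0.0917 for Acss2. The cause of these turns was not tested.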
